A study of Mus musculus with 9 samples.

Results

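Fetal mouse ovaries were grafted under the kidney capsule of adult males, and the late grafts without the strong kidney signal of 1 array were compared here with the grafts of day 10. The late side was formed by the single array of day 15 and by replicate 2 of day 20, and the other side by replicates 1 and 2 of day 10, so that 4 of the 9 arrays of the series entered the comparison. Replicate 1 of day 20 was left out because genes of the kidney tubule stood far higher on it than on any of these 4 arrays. All groups came from XX ovaries of 13 dpc, taken from embryos whose mothers had been given busulfan, a drug used to deplete the germ cells. Each pair of ovaries was placed under the kidney capsule of an XY nude mouse, and each graft array held RNA pooled from approximately 10 grafts recovered on day 10, 15 or 20 post-transplantation. The sample labels name ICR as the strain, whereas the study's methods give C57BL/6 and ICR. The other arrays, of ungrafted ovaries on day 0 and of grafts on days 4 and 7, are used only as context. The duplicate arrays are labelled as biological replicates, but which litters and hosts went into a pool was not used here, and a p-value reflects no more than the spread of pooled samples. A nude mouse lacks a thymus and has few mature T cells but keeps its B and myeloid cells, and RNA of host cells in a graft is measured with RNA of the graft. In these pools, more cells of a type and more RNA per cell cannot be told apart.

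A fetal ovary consists of germ cells and of supporting cells that become the granulosa cells of the follicles. When a follicle starts to grow, its oocyte makes the zona pellucida and then a large store of maternal transcripts, and theca cells that make androgen gather around the granulosa layers. Imprinted genes that promote fetal growth, in contrast, are usually turned down as an organ matures.

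Expression was read on Affymetrix mouse arrays, which probe a transcript with sets of short oligonucleotides called probe sets. Each of the 45101 probe sets has a deposited intensity on the log2 scale, so that a difference of 1 stands for 2-fold, and all levels and differences below are on this scale. Over all probe sets, the difference between the day 15 array and day 20 replicate 2 had a standard deviation of 0.32, against 0.34 between the day 10 replicates and 0.45 between the day 0 replicates. The late side joins 2 days, so that its spread holds any change between day 15 and day 20. Defining markers of the supporting lineage were present on all 4 arrays, with Foxl2, a transcription factor of granulosa cells, between 12.68 and 12.98. Umod, a gene of the kidney loop, lay between 3.57 and 3.93 on the 4 arrays and at 11.69 on the array left out.

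With limma's moderated test, no probe set was called higher and none lower in the late grafts at an adjusted p under 0.05 and more than 2-fold (0 of 45101 in either direction, a share of 0%). The lowest adjusted p was 0.51. At an unadjusted p under 0.05 there were 2482 probe sets, or 5.5%, of which 1516 were higher (3.36%) and 966 lower (2.14%). Differences are therefore described below by the values on the arrays, and none of the genes named passed the test. Genes are said not to overlap when the late arrays were either both above or both below the pair of day 10 arrays. Among the 45101 probe sets, 386 were higher without overlap and by more than 2-fold (0.856%), and 269 were lower (0.596%). With a single probe set for each of 18194 genes, the one with the highest mean, 254 genes were higher in this way (1.4%) and 24 were lower (0.132%). Without the fold limit, 3953 genes were higher without overlap (21.7%) and 2801 lower (15.4%), and the median difference over all genes was 0.02. At an unadjusted p under 0.05, 827 genes were higher (4.55%) and 302 lower (1.66%), together 6.21%.

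**Figure D1:**
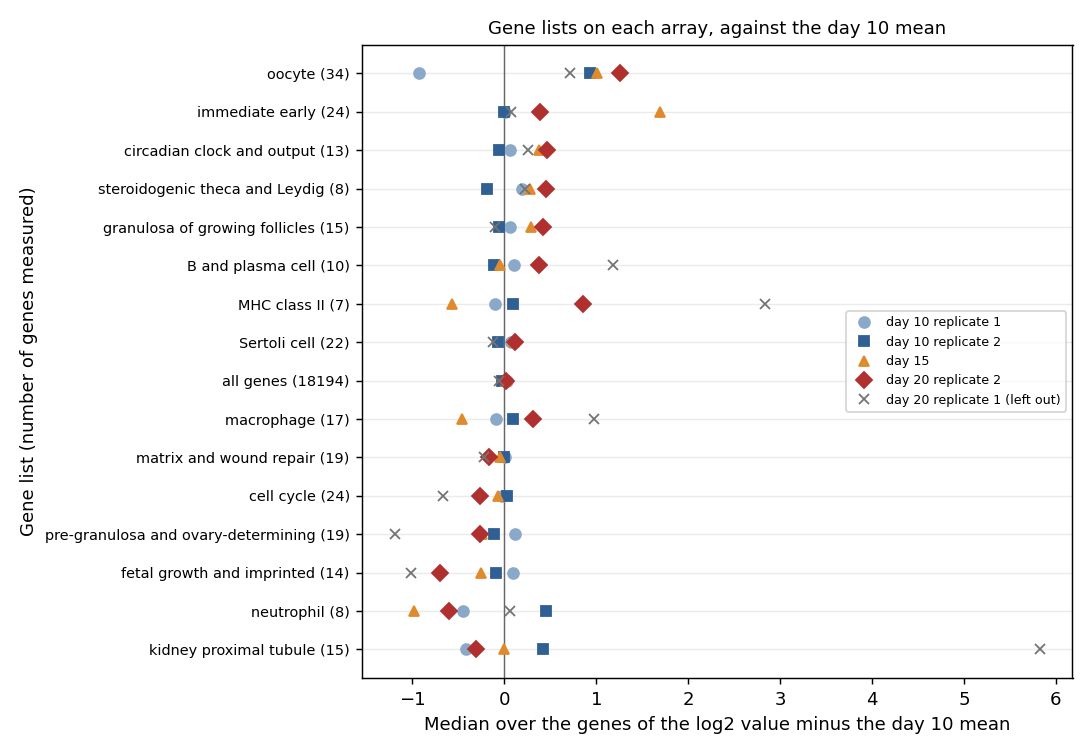
Median over the genes of each list of the log2 value minus the mean of both day 10 arrays, with a symbol for each array and the number of genes measured in parentheses. Oocyte genes lie at 1.0 on day 15 and 1.25 on day 20 replicate 2, but day 10 replicate 2 lies at 0.93. Immediate early genes lie at 1.70 on day 15 and 0.39 on day 20 replicate 2, and the kidney proximal tubule genes at 5.83 on day 20 replicate 1, the array left out.

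Some bases in front of the genes that stand out below are shown first, because both of the leading groups hold genes known to be controlled through short elements near the start of transcription. They are the 250 bases before the start in the RefSeq promoter table of build GRCm38.p6, for 2 genes of each list with a large difference and a single listed start. Capitals mark a CArG box or TGACG in the immediate early genes Fos and Nr4a1, and TAATTG or CACCTG in the oocyte genes Bmp15 and Omt2a, on either strand, and the stretch of Bmp15 holds neither word. Fos lies on the plus strand of chromosome 12 (chr12:85473640-85473889), Nr4a1 on the plus strand of chromosome 15 (chr15:101266596-101266845), Bmp15 on the minus strand of chromosome X (chrX:6320725-6320974) and Omt2a on the minus strand of chromosome 9 (chr9:78314049-78314298).
Fos: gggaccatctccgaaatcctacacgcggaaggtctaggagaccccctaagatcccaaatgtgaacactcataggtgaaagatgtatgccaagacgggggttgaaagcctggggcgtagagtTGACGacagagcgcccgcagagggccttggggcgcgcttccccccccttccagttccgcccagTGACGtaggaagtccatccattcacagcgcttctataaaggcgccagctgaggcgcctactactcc
Nr4a1: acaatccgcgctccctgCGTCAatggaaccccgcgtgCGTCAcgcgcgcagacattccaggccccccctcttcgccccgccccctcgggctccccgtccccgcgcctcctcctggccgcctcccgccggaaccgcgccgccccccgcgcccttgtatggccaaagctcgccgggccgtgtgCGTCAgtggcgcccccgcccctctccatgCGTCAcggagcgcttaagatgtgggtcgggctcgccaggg
Bmp15: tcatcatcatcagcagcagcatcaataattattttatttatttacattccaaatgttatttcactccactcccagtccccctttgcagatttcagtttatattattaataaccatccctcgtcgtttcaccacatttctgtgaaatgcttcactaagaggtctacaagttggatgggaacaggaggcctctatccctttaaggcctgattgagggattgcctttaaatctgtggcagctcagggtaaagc
Omt2a: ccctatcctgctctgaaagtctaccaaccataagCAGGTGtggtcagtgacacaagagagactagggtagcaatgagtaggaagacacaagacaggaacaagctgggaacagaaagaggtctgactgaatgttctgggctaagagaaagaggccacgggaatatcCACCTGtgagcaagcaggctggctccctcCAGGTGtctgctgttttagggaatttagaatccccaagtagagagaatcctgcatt

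TGACG, part of the cyclic AMP response element TGACGTCA, was present on either strand in 15 of the 19 immediate early genes with an entry (78.9%), against 19.8% of all 27025 genes of the table. A gene with several listed starts was counted once if any of its stretches held the word. TGACGTCA itself, which contains TGACG, was present in 3 of the 19 (15.8%, against 1.77% of all genes), and a CArG box, the element of serum response factor, in Egr2 and Zfp36 (10.5%, against 1.62%). These stretches were rich in G and C, and GGGCGG was present in 17 of the 19, against 35.4% of all genes. Among the 26 oocyte genes with an entry, CACCTG, a form of the E-box CANNTG, was present in 13 (50%), against 19.4% of all genes and in 1 of the 19 immediate early genes. CANNTG in any form was present in 23 of the 26 (88.5%, against 69.3%). TAATTG, an element that the oocyte factor NOBOX is known to bind, was present in Ooep, Omt2b and Pla2g4c (11.5%, against 8.3%). TAATTA was present in Bmp15 and Nlrp5, 2 of the 26 oocyte genes and 0 of the 19 immediate early genes, CACGTG in 4 and 5, and TGANTCA in 2 and 0. The words were chosen with the array values known, and a match describes letters only.

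Oocyte genes formed the group with the largest median difference. Of 34 genes measured, 20 were higher in the late grafts without overlap, 16 of them by more than 2-fold, and 1 was lower, with a median difference of 1.11. Over all genes these shares were 21.7%, 1.4% and 15.4%, and the median was 0.02. At an unadjusted p under 0.05, 13 oocyte genes were higher and 1 was lower. The growth factor gene Bmp15, which the oocyte uses to signal to granulosa cells, stood at 6.61 and 8.66 on the day 10 arrays, at 9.79 on day 15 and at 10.35 on day 20 replicate 2. Its difference was 2.43 ± 0.64 (SE), with an adjusted p of 0.82 in limma, and its other probe sets had differences of 1.585 to 1.72. Both late arrays lay above both day 10 arrays, but the step between the day 10 replicates was larger than the step from replicate 2 to day 15.

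The same order held for most transcripts that growing oocytes store. Mos, the kinase that later holds the egg in meiosis, stood at 7.08 and 8.87 on day 10, 9.68 on day 15 and 10.23 on day 20 replicate 2. Oosp1, an oocyte-secreted protein gene, stood at 8.97 and 10.71, then at 11.42 and 12.12. Gdf9, the partner of Bmp15, stood at 10.07 and 12.13 on day 10 and at 12.34 and 12.74 on the late arrays. Of the 20 members without overlap, 18 were higher on day 20 replicate 2 than on day 15. This was common among higher probe sets, since 88.1% of the 386 over 2-fold and without overlap were too. On the array left out, 17 of the 20 members were also higher than both day 10 arrays, and 17 of all 34. The 20 were selected against these same day 10 arrays, so this is no independent evidence.

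The zona pellucida genes behaved differently in level. Zp3, the sperm-binding zona protein, stood at 10.84 and 12.74 on day 10, at 12.45 on day 15 and at 12.38 on day 20 replicate 2. For Zp1 and Zp2 too, both late arrays lay between the day 10 replicates. Padi6, Nlrp5 and Ooep, genes of the cytoplasmic lattice and maternal complex of the oocyte, overlapped in the same way, and Padi6 stood at 11.12 and 13.24 on day 10 against 12.67 and 12.62. Sohlh1, a factor of early oocytes, was the single member below both day 10 arrays. It stood at 6.41 and 7.41 on day 10, at 6.08 on day 15 and at 5.67 on day 20 replicate 2, a difference of -1.04 ± 0.36 (SE), and an adjusted p of 0.88 in limma.

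**Figure D2:**
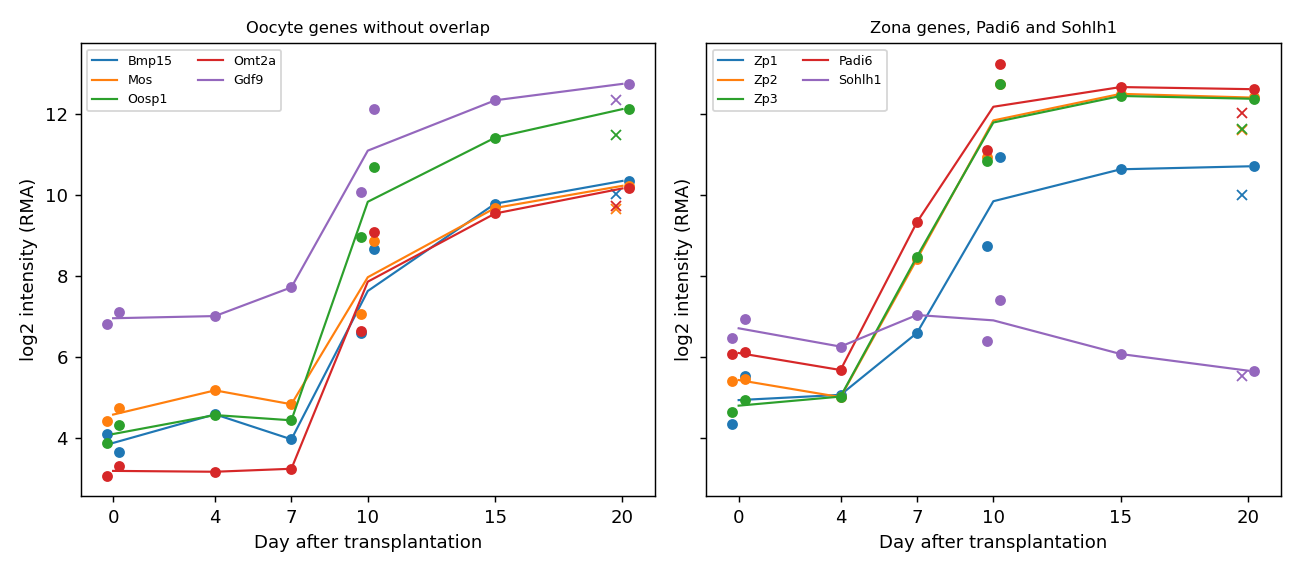
Log2 intensity by day for 5 oocyte genes without overlap (left) and for the zona genes, Padi6 and Sohlh1 (right); points are single arrays, crosses are day 20 replicate 1, and lines join the day means without that array. On the left the values go on upward after day 10, to 10.35 for Bmp15 on day 20 replicate 2. On the right the late values of the zona genes and Padi6 lie between the day 10 replicates, and Sohlh1 lies below both.

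The oocyte genes depended on the day 10 arrays. All 34 members were higher on day 10 replicate 2 than on replicate 1, by a median of 1.86, against -0.04 over all probe sets. Without day 10 replicate 1, the median difference was 0.24 and 5 members were higher by more than 2-fold, and without day 10 replicate 2 these were 2.13 and 29. A scaling chosen after the values were seen set each oocyte gene against the mean of Zp1, Zp2 and Zp3 on the same array. On this scale, the median over the other 31 members lay at 0.06 and -0.06 on the day 10 replicates, at 0.36 on day 15 and at 0.72 on day 20 replicate 2. Both late arrays were above both day 10 arrays for 19 of the 31 members, 8 of them by more than 2-fold, and below for 5. On the array left out the median was 0.93. The differences of Zp1, Zp2 and Zp3 (0.82, 0.61 and 0.62) were under the list median of 1.11. A higher median on this scale thus follows from values already given and is no further evidence.

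Some families known for their use in oocytes, with Nlrp4f also counted in the oocyte list, were picked after the values were seen, so that their counts are a description. Of the 8 measured genes of the Nlrp4 and Nlrp9 families, 7 were higher in the late grafts without overlap and by more than 2-fold, with a median difference of 2.0. Of 10 measured genes between Fbxw12 and Fbxw28, a cluster of F-box genes used in oocytes, 9 were higher in this way, with a median of 1.92. Over all genes this share was 1.4%. In the wider families, 7 of 15 Nlrp, 9 of 18 Fbxw and 4 of 11 Pramel genes were higher in this way. Their medians were 0.96, 0.97 and 0.46, and 1, 2 and 3 of them were lower without overlap. Obox2, an oocyte homeobox gene, had the largest difference of any gene, 4.08. Members of these families share sequence, and a probe set may read more than 1 of them.

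The genes with the smallest p in the higher direction included 4 of the Nlrp9, Fbxw and Pramel families. Ranked among genes with a symbol more than 2-fold higher and without overlap, the first 10 were Cnmd, Nlrp9b, Fbxw22, Cuzd1, Tmprss11a, Txndc2, Olfr976, Pramel25, Vwc2 and Fbxw14. Cnmd, which codes for chondromodulin, an inhibitor of vessel growth, stood at 8.86 and 8.99 on the day 10 arrays, at 10.64 on day 15 and at 11.11 on day 20 replicate 2. Its day 10 replicates were close together, and the difference of 1.95 ± 0.18 (SE), or 3.86-fold, had an adjusted p of 0.51 in limma, and no probe set had a lower one. Pramel25, of the PRAME-like family, stood at 5.03 and 6.20, then at 8.70 and 9.92, a difference of 3.69 ± 0.51 (SE) with an adjusted p of 0.74 in limma. Nlrp9b stood at 5.83 on both day 10 arrays, at 7.21 on day 15 and at 7.35 on day 20 replicate 2. The second probe set of Vwc2 had a difference of 0.09. For all 10 genes, the array left out was also higher than both day 10 arrays. They were selected against these same day 10 arrays, so this is no independent evidence, and no share over all genes was counted.

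Granulosa genes of growing follicles differed less. Of 15 measured, 8 were higher without overlap and 2 lower, against 21.7% and 15.4% of all genes. None differed by more than 2-fold, and the median difference was 0.34. Hsd17b1, the granulosa enzyme that makes the more active oestrogen, stood at 9.05 and 9.14 on day 10, at 9.70 on day 15 and at 10.10 on day 20 replicate 2. Its difference of 0.80 ± 0.17 (SE) had an adjusted p of 0.74 in limma. Ihh, a hedgehog ligand through which granulosa cells signal to the theca, stood at 5.41 and 5.91, then at 6.27 and 6.79. The late values of both genes lay above both day 10 values. Inha, the inhibin alpha subunit, was at 12.97 and 12.78 and then at 13.16 and 13.37, whereas Inhba, a beta subunit, was at 8.53 and 8.60 and then at 8.19 on both late arrays, with 0.07 as the difference of its other probe set. Fshr, the receptor of follicle-stimulating hormone, was at 6.07 and 5.76 and then at 6.22 and 6.52.

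Of the 8 steroidogenic genes of theca and Leydig cells measured, 6 were higher on day 20 replicate 2 than on day 15. Of all 18194 genes, 9346 were. The median step between these arrays was 0.18, against 0.0084 over all genes. In the comparison 4 were higher without overlap, against 21.7% of all genes, and none was lower. Of the 4, 2 were higher by more than 2-fold. Cyp17a1, the enzyme that makes androgens, stood at 6.36 and 5.91 on day 10, at 6.91 on day 15 and at 8.83 on day 20 replicate 2. Cyp11a1, the first enzyme of steroid synthesis, stood at 5.77 and 5.53, at 6.22 and at 7.56. For both genes the late arrays lay above day 10, and the step from day 15 to day 20 replicate 2 was larger than the step from day 10 to day 15. The other 2 probe sets of Cyp11a1 lay at -0.00494 and 0.0368. The array left out lay at 8.47 for Cyp17a1 and at 7.54 for Cyp11a1. The differences of 1.74 ± 0.59 and 1.24 ± 0.42 (SE) had an adjusted p of 0.88 each in limma. Hsd3b1 stood at 12.63 and 11.99 on day 10 and at 12.59 and 12.78 on the late arrays, and its groups overlapped.

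Genes of the pre-granulosa cell and of ovary determination were lower or level. Of 19 measured, 8 were lower without overlap and 1 higher, against 15.4% and 21.7% of all genes, with a median difference of -0.28. Mbnl3 stood at 10.22 and 10.05 on day 10, at 9.61 on day 15 and at 9.38 on day 20 replicate 2, a difference of -0.64 ± 0.14 (SE) with an adjusted p of 0.79 in limma. Runx1, a transcription factor of fetal granulosa cells, stood at 9.53 and 9.89 on day 10 and at 8.20 and 8.46 late, and it was the single member lower by more than 2-fold. The other 5 probe sets of Runx1 lay between -0.82 and 0.03. Runx1 also differed between the ungrafted ovaries, at 9.01 and 7.15. Foxl2 stood at 12.92 and 12.68 on day 10 and at 12.76 and 12.98 late, and its groups overlapped. The exception was Bmp2, a growth factor gene of the fetal ovary, at 8.71 and 8.86 on day 10 and at 9.39 and 9.05 late.

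Sertoli cell genes, which mark the supporting cell of the testis, lay close to the shares over all genes. Of 22 measured, 5 were higher and 5 lower without overlap, against 21.7% and 15.4% of all genes, none by more than 2-fold, and the median difference was 0.11. Sox9, the transcription factor that defines Sertoli cells, stood at 7.30 and 7.10 on day 10, at 7.91 on day 15 and at 7.31 on day 20 replicate 2. The value of day 20 replicate 2 was thus barely above that of day 10 replicate 1, and the array left out was at 6.89. Its difference of 0.41 ± 0.30 (SE) had an adjusted p of 0.93 in limma. Ptgds, the prostaglandin D synthase of Sertoli cells, stood at 9.14 and 8.73 on day 10 and at 8.37 and 8.21 late. Dmrt1, a testis factor that germ cells also use, lay between 4.08 and 4.47 on the 4 arrays, under 4.82, the 25th percentile of all values, below which values are taken as close to background.

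Immediate early genes, which cells transcribe within minutes of a stimulus and which include factors of the AP-1, EGR and NR4A families, were the other group with a large median. Of 24 measured, 17 were higher in the late grafts without overlap, 12 of them by more than 2-fold, and none was lower, with a median difference of 1.03. The shares over all genes were 21.7%, 1.4% and 15.4%. Egr2 stood at 6.91 and 6.95 on day 10, at 11.80 on day 15 and at 7.91 on day 20 replicate 2. Fos stood at 8.17 and 8.53, at 12.02 and at 10.26. Nr4a1 stood at 8.14 and 7.87, at 10.80 and at 8.95. The day 15 array was the highest for all of these, and it was above day 20 replicate 2 for 23 of the 24 genes.

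The late value of this group thus rested on the day 15 array. Without it, the median difference was 0.39 and 1 member, Fos, was higher by more than 2-fold, whereas without day 20 replicate 2 the median was 1.70. The adjusted p in limma was 0.89 for Egr2, with a difference of 2.93 ± 1.15 (SE), and 0.74 for Fos, with a difference of 2.79 ± 0.54 (SE). On the array left out, the median lay at 0.07 against the day 10 mean, and Fos stood at 8.01. The exception on day 15 was Nr4a2, at 7.10 and 6.92 on day 10, 7.60 on day 15 and 7.88 on day 20 replicate 2, and its other 5 probe sets lay between -0.21 and 0.41. For Egr3, the 2 probe sets differed, since the one with the highest mean had a difference of -0.01 and the other one of 3.59, with 12.58 on day 15. Each late day is a single array of the comparison, and the sources do not state how long the grafts were handled before lysis, so that the part of handling was not tested.

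**Figure D3:**
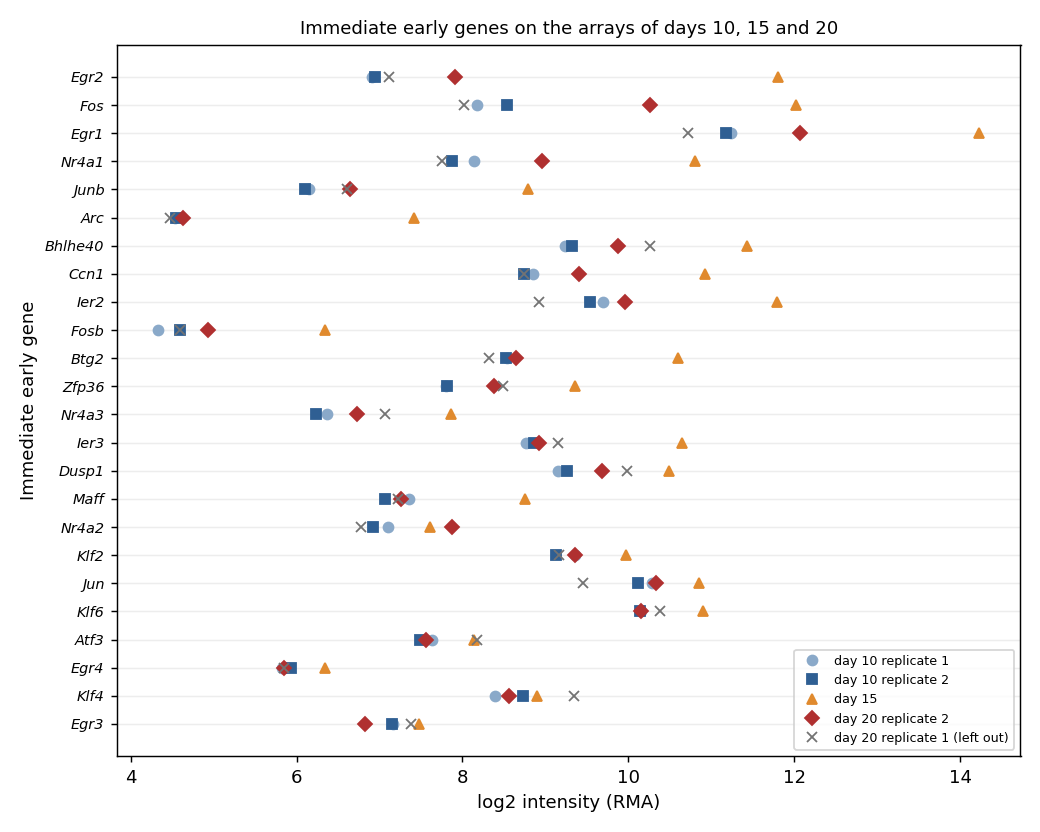
Log2 intensity of the 24 immediate early genes measured, ordered by the late minus day 10 difference, with a symbol for each array of days 10, 15 and 20. The triangles of day 15 lie to the right of both day 10 arrays for all 24 genes, at 11.80 for Egr2 and 12.02 for Fos. The diamonds of day 20 replicate 2 lie to the left of the triangles for 23 of the 24 genes.

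Several stress and growth factor response genes were high on day 15 alone among the 4 arrays. Among genes with a symbol and with the larger of the late values above 6.57, the median of all values, the 8 that stood furthest above day 20 replicate 2 were Errfi1, Tnfrsf12a, Arc, Hspa1a, Dusp5, Dmp1, Egr2 and Egr1. Errfi1, a feedback inhibitor of the EGF receptor, stood at 13.25 on day 15, at 10.14 on day 20 replicate 2 and at 10.00 and 10.16 on day 10. Hspa1a, a heat shock protein gene, stood at 11.17, at 8.47 and at 8.52 and 8.71. The 8 genes that stood furthest above day 15 on day 20 replicate 2 were Prap1, Ltf, an immunoglobulin kappa variable gene (4.52 on day 15 and 8.50 on day 20 replicate 2), Serpina1c, Aoc1, Lcn2, Sult1d1 and Cd3g. Ltf, the lactoferrin gene, stood at 11.33 on day 20 replicate 2 against 6.69 on day 15, and at 7.88 and 8.76 on day 10. With 1 array on either side, these differences were not tested.

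The genes of the circadian clock and its outputs showed a small difference in 1 direction. Of 13 measured, 10 were higher without overlap and none was lower, against 21.7% and 15.4% of all genes, and the median difference was 0.46. Nr1d1, a repressor of the clock, stood at 5.60 on both day 10 arrays, at 5.95 on day 15 and at 6.39 on day 20 replicate 2. Per1, a negative limb gene, stood at 8.59 and 8.48, at 9.47 and at 8.73, and Cry1, its partner, at 8.84 and 9.14, at 9.58 and at 9.45. None reached 2-fold, and the lowest adjusted p was 0.82 in limma. The sources do not state the hour at which grafts were taken, and its part was not tested.

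Most fetal growth and imprinted genes were in the lower direction without overlap, against 15.4% of all genes. Of 14 measured, 11 were lower without overlap, and 1 was higher, with a median difference of -0.56. Dlk1, an imprinted gene of the Notch ligand family, was the single member lower by more than 2-fold, at 10.02 and 9.77 on day 10, at 9.69 on day 15 and at 8.05 on day 20 replicate 2, and its other probe set had a difference of -0.16. The count over 2-fold was 4 without day 15, 0 without day 20 replicate 2 and 3 with day 20 replicate 1 added. Cdkn1c, an imprinted inhibitor of the cell cycle, stood at 10.25 and 10.53 on day 10, at 9.70 on day 15 and at 9.23 on day 20 replicate 2, a difference of -0.92 ± 0.20 (SE) with an adjusted p of 0.80 in limma. Mest stood at 11.14 and 11.20, at 10.62 and at 9.92, and Peg3 at 13.43 and 13.15, at 12.71 and at 12.47. The other 4 probe sets of Peg3 lay between -1.21 and 0.00364. Igf2, the fetal growth factor, stood at 11.65 and 11.36, at 11.34 and at 10.36, and its other probe set had a difference of -0.18. All 11 were lower on day 20 replicate 2 than on day 15, whereas 9346 of all 18194 genes were higher there. Of the 11, 10 were lower on day 7 than on both arrays of ungrafted ovaries. That step shares no array with the comparison, but the list was chosen with earlier results of these data known. Over all probe sets, 39.5% were higher on day 7 than the mean of the ungrafted ovaries, so that most were not. This share uses the mean and all probe sets, whereas the 10 are genes below both arrays. The matching share was not counted. The exception was Lin28b, at 3.13 and 3.06 on day 10 and at 3.57 and 3.43 late, all under 4.82.

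Cell cycle genes were lower by smaller amounts, with a median of -0.16. Without overlap, 12 of 24 were lower and none higher, against 15.4% and 21.7% of all genes. Rrm2, the ribonucleotide reductase subunit of replicating cells, stood at 10.76 and 10.69 on day 10 and at 10.42 and 10.09 late.

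Matrix genes without overlap were mostly lower. Of 19 genes of matrix and wound repair, 9 were lower without overlap and 2 higher, against 15.4% and 21.7% of all genes. Of the 9, 1 was lower by more than 2-fold, and the list had a median of -0.09. Postn, the periostin gene of wounds and of growing connective tissue, stood at 12.56 and 12.76 on day 10, at 11.86 on day 15 and at 11.02 on day 20 replicate 2, a difference of -1.22 ± 0.34 (SE) with an adjusted p of 0.84 in limma. Lox, which crosslinks collagen, stood at 10.63 and 10.58, at 10.13 and at 9.60, and its other probe sets lay at -0.74 and 0.18. On the array left out Postn stood at 12.52. Ogn, a small matrix proteoglycan, was higher, at 12.73 and 12.40 on day 10 and at 12.75 and 13.06 late.

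**Figure D4:**
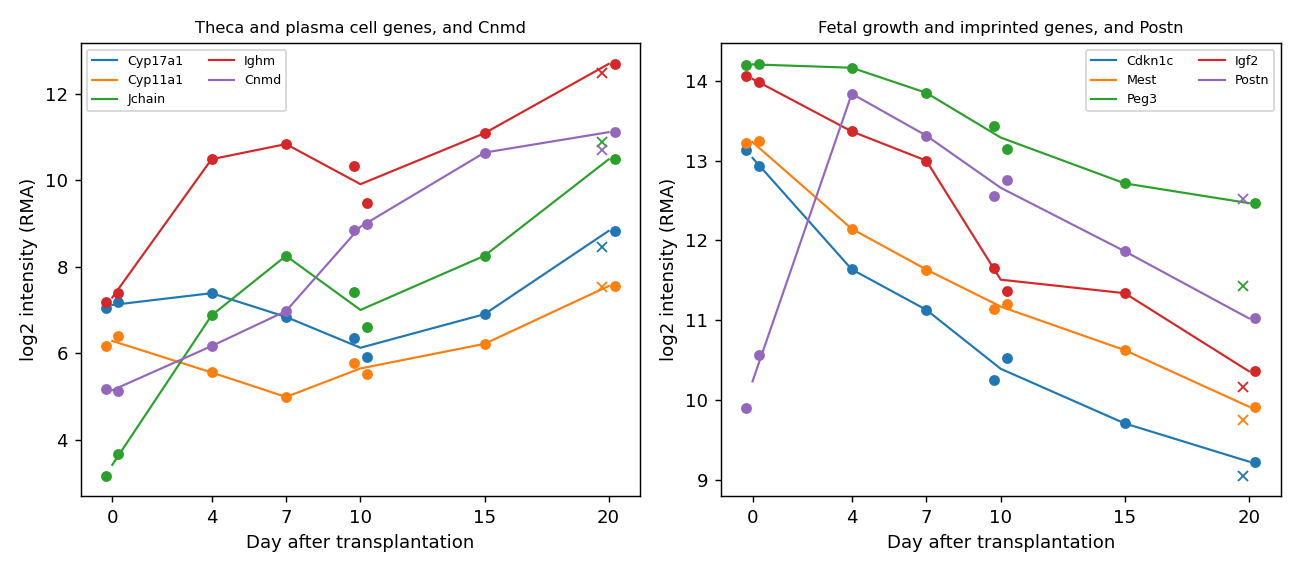
Log2 intensity by day for theca genes, plasma cell genes and Cnmd (left) and for fetal growth and imprinted genes and Postn (right), with points for single arrays, crosses for day 20 replicate 1 and lines through the day means without that array. Cyp17a1 reaches 8.83 and Jchain 10.48 on day 20 replicate 2. Cdkn1c, Mest, Peg3 and Igf2 are lower on each later day, down to 9.23 for Cdkn1c.

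Among genes with a symbol more than 2-fold lower and without overlap, those with the smallest p were Sbspon, Slc35f1, Aldh1b1, Adamts16, Ndnf, Hbb-y, Amph, Zeb2, Postn and Emilin3. Aldh1b1, a mitochondrial aldehyde dehydrogenase gene, stood at 9.19 and 8.54 on day 10, at 7.85 on day 15 and at 7.74 on day 20 replicate 2. Hbb-y, an embryonic globin gene, had the largest difference in the lower direction, -3.12 ± 0.83 (SE), with an adjusted p of 0.82 in limma. It stood at 5.40 and 8.22 on day 10, at 3.76 and 3.62 late, and at 14.61 and 14.49 in the ungrafted ovaries. Its late values lay under 4.82, so that the size of this difference is uncertain. For Zeb2, the probe set with the highest mean had a difference of -1.02, and the other 4 lay between -0.22 and 0.10. The second probe sets of Slc35f1, Adamts16 and Ndnf lay at -0.04, -0.15 and -0.02.

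Most of the lower probe sets were not the brightest of their gene. Of the 269, 198 had a single gene symbol and 24 were the probe set with the highest mean of their gene. For the 156 genes with another, brighter probe set outside the 269, that probe set had a median difference of 0.02. For Wnk1, a kinase gene, a probe set stood at 9.48 and 11.43 on day 10 and at 8.20 and 8.77 late, whereas the brightest one stood at 12.48 and 12.56 and then at 12.48 and 12.55. The 269 also differed within the pairs of the series, with a median of 1.25 between day 0 replicates 1 and 2, of 1.09 between day 10 replicates 2 and 1 and of 0.92 between day 20 replicates 1 and 2, against -0.04, -0.04 and -0.03 over all probe sets. Of the 269, 92.2% were higher on day 0 replicate 1 and 94.1% on day 10 replicate 2, against 42.5% and 40.6% of all probe sets. The day 10 arrays were used to select the 269, so their step is not independent of the selection. Of the 386 higher probe sets, 82.1% were higher on day 10 replicate 2 as well. For labelling, the study's methods name the manuals of a pair of kits, and the sources do not state how these were used across the arrays. The part of the kit was not tested.

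Blood cell genes were counted by cell type. Of 10 B and plasma cell genes, 4 were higher without overlap, 2 of them by more than 2-fold, and none was lower. The shares over all genes were 21.7%, 1.4% and 15.4%. Jchain, the joining chain of secreted antibodies, stood at 7.41 and 6.60 on day 10, at 8.26 on day 15 and at 10.48 on day 20 replicate 2, and Ighm at 10.33 and 9.48, at 11.09 and at 12.69. The differences of 2.36 ± 0.71 and 1.98 ± 0.54 (SE) had adjusted p values of 0.88 and 0.83 in limma. The other 10 probe sets of Ighm lay between -0.18 and 1.58. Cd79a, a subunit of the B cell antigen receptor, stood at 5.04 and 5.19 on day 10 and at 4.77 and 5.11 late, and its groups overlapped. Genes of MHC class II (7 measured) and of macrophages (17 measured) had medians of 0.14 and -0.09, and the macrophage gene Cx3cr1 alone was without overlap, in the lower direction. The other probe set of Cx3cr1 had a difference of 0.02. Cd74, the invariant chain of MHC class II, stood at 8.43 and 8.76 on day 10, 8.23 on day 15 and 9.59 on day 20 replicate 2.

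Neutrophil genes set the day 10 replicates apart, since S100a8 stood at 6.18 on replicate 1 and at 10.43 on replicate 2, against 5.66 and 6.32 late. Of the 8 neutrophil genes measured, Camp, Ngp and Mpo were lower without overlap, against 15.4% of all genes, and the median difference was -0.68. The other 5 overlapped, and of these Ltf had a difference of 0.69, with 11.33 on day 20 replicate 2. Of the 8, 7 were higher on day 20 replicate 2 than on day 15, against 9346 of all 18194 genes. Kidney genes differed between these replicates as well. Of 15 proximal tubule genes, 13 were higher on day 10 replicate 2 than on replicate 1, by a median of 0.84 over the list, and Acsm2 stood at 5.35 and 8.06 there and at 5.76 and 5.28 late. Miox stood at 7.96 and 10.19 on day 10 and at 10.00 and 9.86 late. Against the day 10 mean, the list lay at -0.00296 on day 15 and at -0.31 on day 20 replicate 2. The part of kidney or blood cells in the oocyte and immediate early values was not tested.

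Genes that the study itself singled out among transcription factors were counted last. Since the study chose them on these arrays, they are no independent evidence of a direction. Of 18 measured that it placed lower in grafts, 8 were lower late without overlap and 2 higher, with a median of -0.16. Over all genes these shares were 15.4% and 21.7%. Irx3, an ovarian homeobox gene, stood at 11.00 and 10.96 on day 10 and at 10.46 and 10.60 late, and Lzts1 at 9.58 and 9.26 and then at 8.90 and 9.02. Nr0b1 stood at 8.29 and 7.62 and then at 7.87 and 8.22, and its groups overlapped. Those of Emx2 did too, at 11.24 and 10.76 and then at 10.51 and 10.78. Of the 18, 15 were higher on day 20 replicate 2 than on day 15, Irx3 and Lzts1 among them, against 9346 of all 18194 genes. Of 20 that it placed higher in grafts, 14 were higher late without overlap, 4 of them by more than 2-fold, and none was lower. These 4 were Egr2, Egr1, Nr4a1 and Bhlhe40, which are immediate early genes as well. Ahr, the aryl hydrocarbon receptor, stood at 8.94 and 9.09 on day 10 and at 9.42 and 9.90 late, a difference of 0.65 ± 0.21 (SE) and an adjusted p of 0.88 in limma, and its other probe set had a difference of 0.01.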

How the data were processed

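RNA of each pool of ovaries or grafts was hybridised to 1 Affymetrix mouse array, 9 in all. Per the labels, the authors summarised the probe intensities with RMA, and the deposited table holds log2 values of 45101 probe sets, 64 of them controls. The number of arrays limits the precision. The values were tested as deposited with limma 3.58.1 in R 4.3.3. All 9 arrays entered the fit, with the day 15 array and day 20 replicate 2 as 1 group, day 20 replicate 1 as a group of its own and the other arrays grouped by day, which left 3 residual degrees of freedom. P-values were adjusted by Benjamini-Hochberg over all probe sets, and a call needed an adjusted p under 0.05 and more than 2-fold. Counts without overlap carry no test. Symbols came from the platform annotation, in which 34958 probe sets have a single symbol, 932 several and 9211 none. The probe set with the highest mean over all arrays stood for its gene. The comparison and the 35 gene lists (454 of 498 genes measured) were chosen with earlier results of these data known. Genes were named by a rule: the 10 smallest p in each direction among those over 2-fold without overlap, up to 4 members of each list by size of difference, the 8 highest and 8 lowest in day 20 replicate 2 minus day 15, and genes the study names. Other list members, the families and the probe sets of Wnk1 and Egr3 were chosen after their values were seen. Python 3.11.15 was used for the counts and the promoter words, with numpy 2.4.6 and pandas 2.3.3, and matplotlib 3.10.9 for the plots. Alternatives were other scalings, filters, variance models, fold limits and sets of arrays, and the fit was tested on simulated data.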

Additional observations from a re-analysis of the deposited data

Results flagged for a closer look

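On day 20 replicate 1, the array left out of the comparison, the 15 proximal tubule genes measured had a median of 5.83 above the day 10 mean, and 15 of the 15 were higher there than on all 4 arrays compared. The 12 genes of the kidney loop, distal tubule and collecting duct had a median of 2.88 above the day 10 mean, and 12 of the 12 were higher there. Both values stand here because this array was in no group of the comparison. The array was left out for its kidney genes, so these counts restate that choice and are no independent evidence.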

How the results depend on the processing

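No probe set was called in either direction under any alternative, except that 4 were called higher without day 15 replicate 1. Leaving out 1 array at a time thus gave 0 to 4 called higher. Of these 4, 3 have no symbol and stood between 11.6 and 12.4 on day 20 replicate 2, against 4.14 to 5.97 on the other 8 arrays. The lowest adjusted p in limma lay between 0.00937 and 0.671 over the alternatives. The count of 386 probe sets higher without overlap and over 2-fold became 254 with 1 probe set a gene, and ranged from 314 to 711 without 1 array at a time. It was 619 without day 10 replicate 2 and 711 without day 15. The count of 269 lower became 96 with day 20 replicate 1 added and 24 with 1 probe set a gene, and ranged from 88 (without day 10 replicate 2) to 854 (without day 10 replicate 1). Fewer features enter with 1 probe set a gene, and the cause of the other shifts was not tested.

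Without 1 array at a time, the median of the oocyte genes ranged from 0.24 to 2.13 and that of the immediate early genes from 0.39 to 1.70. Nr0b1 was left out of the turned signs given next. With day 20 replicate 1 added, the sign turned for Acsm2 (1.64), Dmrt1 (-0.00899), Egr3 (0.0638), Foxl2 (-0.31) and Prap1 (-0.52). It turned for Egr3 (0.00575) and Wnk1 (0.0111) with each array centred on its median, and for Wnk1 (0.00381) with quantile normalization. Without 1 array at a time the difference crossed 0 for 23 of the genes named. These were Acsm2 (-2.54 to 0.17), Aoc1 (-0.0265 to 2.90), Cd3g (-0.20 to 2.14), Cd74 (-0.36 to 0.99), Dmp1 (-0.12 to 2.24), Dmrt1 (-0.13 to 0.26), Egr3 (-0.34 to 0.32), Foxl2 (-0.0476 to 0.19), Hspa1a (-0.15 to 2.56), Lcn2 (-0.28 to 2.47), Ltf (-1.63 to 3.01), Miox (-0.26 to 1.97), Nlrp5 (-0.47 to 1.95), Ooep (-0.32 to 2.59), Padi6 (-0.60 to 1.52), Prap1 (-2.37 to 2.97), Sult1d1 (-1.29 to 1.33), Tnfrsf12a (-0.15 to 2.66), Umod (-0.17 to 0.19), Wnk1 (-0.0427 to 0.0327), Zp1 (-0.27 to 1.92), Zp2 (-0.29 to 1.51) and Zp3 (-0.33 to 1.57). No paired analysis was possible because the late side and day 10 share only replicate number 2, and the day 15 array carries no number.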

Other observations

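Further lists were counted on the same 4 arrays, and over all genes 21.7% were higher and 15.4% lower without overlap. Of 12 genes of ovarian surface epithelium and keratin, 2 were higher and none lower, with a median of 0.18. Lrrn4 alone of these was over 2-fold, with a difference of 1.13. Lists of follicle atresia, adipocyte, skeletal muscle, hepatocyte, erythroid and Y-linked genes were also counted and are not described as lists. Mast cell genes, of which 2 of 9 were higher late without overlap, had a median difference of 0.09. Interferon-stimulated genes had a median of 0.19, with 1 of 9 higher, and complement genes had a median of 0.19, with 3 of 8 higher. Of 16 inflammatory cytokine and chemokine genes, 4 were higher and none was lower, with a median of 0.14. Endothelial genes (14 measured, 1 higher and 3 lower) had a median of -0.05, and smooth muscle and pericyte genes (12 measured, 2 lower) had a median of -0.15. T and NK cell genes overlapped for all 10 measured, with a median of 0.12. Genes of cholesterol synthesis and uptake split evenly, with 2 of 13 higher, 2 lower and a median of 0.07. Of 12 androgen response genes, 4 were higher and none was lower, with a median of 0.11, and of 12 hormone receptor genes 3 were higher and 2 lower.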
